A study of Homo sapiens with 2 samples.

Results

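The promoters of MYB and HBS1L on chromosome 6 were examined as captured fragments, together with their partners in the interval between both genes and in AHI1, the gene that follows MYB. Interactions were taken from promoter-capture Hi-C of K562 cells, an established chronic myelogenous leukaemia line that carries the BCR-ABL1 fusion. One library came from cells given 100 nM ponatinib, an inhibitor of BCR-ABL1, for 24 h, and one from cells given the vehicle DMSO for 24 h. Equal numbers of cells were harvested for both. An interaction was counted when one of its ends was a captured (bait) fragment holding an end of MYB, HBS1L or AHI1 in hg38. By this rule 30 of the 138160 interactions in either list were chosen, 15 of 91305 in ponatinib and 24 of 84049 in DMSO. Both MYB and HBS1L had 1 listed bait fragment, and AHI1 had 0. Scores are those the authors gave each pair within a list, and no listed score lies below 5. With 1 library per treatment, differences between ponatinib and DMSO could not be tested or checked against replicates. The lists hold no read counts, and read depth is unknown. Intervals are exact binomial 95% intervals that cover counting error only. They treat listed pairs as independent, although some pairs are in both lists and some partners adjoin each other. K562 carries a chromosome 9 to 22 fusion, and pairs between those chromosomes numbered 1781 in ponatinib and 1654 in DMSO. Expression markers were not measured.

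MYB encodes a transcription factor that keeps blood progenitors dividing and declines as erythroid cells mature. The DNA between HBS1L and MYB is known for enhancers that act on MYB in erythroid cells, and inherited variation there is associated with fetal haemoglobin level. HBS1L encodes a translational GTPase that works with PELO to rescue stalled ribosomes. AHI1 encodes jouberin, a protein of the ciliary transition zone that has also been found in a complex with BCR-ABL1 in leukaemic cells. Insertions of a leukaemia virus in Ahi1, next to Myb, led to its discovery in mouse.

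MYB lies at 135181308 to 135219172 and reads towards AHI1, which lies at 135283532 to 135497740 and reads towards MYB. HBS1L, at 134960378 to 135054822, reads away from MYB. The 126 kb between the starts of HBS1L and MYB hold no other protein-coding gene. The MYB bait fragment spans 135179223 to 135185019, and the HBS1L bait fragment spans 135053360 to 135055523 and also holds an end of the lncRNA LOC124901405. Each of them holds the transcription start of its gene in the RefSeq table. The promoter sequences inside these captured fragments are shown because these fragments define the set. They run from 250 bases before to 50 bases after the start, in RefSeq GRCh38.p14, with MYB at chr6:135181058-135181357 on the plus strand and HBS1L at chr6:135054773-135055072 on the minus strand. Capitals mark matches, on either strand, to the GC box GGGCGG and to CACCC, the core of sites bound by KLF factors.
MYB: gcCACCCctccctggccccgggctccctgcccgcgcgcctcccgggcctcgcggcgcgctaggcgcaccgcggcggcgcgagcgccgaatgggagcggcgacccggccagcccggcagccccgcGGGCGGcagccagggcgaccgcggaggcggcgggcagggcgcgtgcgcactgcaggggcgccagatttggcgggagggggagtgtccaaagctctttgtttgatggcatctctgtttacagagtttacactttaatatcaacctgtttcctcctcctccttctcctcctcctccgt
HBS1L: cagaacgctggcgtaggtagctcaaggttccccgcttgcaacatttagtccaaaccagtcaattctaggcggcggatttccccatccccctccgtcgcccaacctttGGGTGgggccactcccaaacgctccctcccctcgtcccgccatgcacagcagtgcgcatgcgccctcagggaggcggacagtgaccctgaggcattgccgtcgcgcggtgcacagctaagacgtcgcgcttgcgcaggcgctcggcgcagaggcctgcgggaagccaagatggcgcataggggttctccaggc
MYB had 1 GGGCGG and 1 CACCC match, and HBS1L had 0 and 1. No matches overlapped. GGGCGG was held by 58.5% of the 15843 protein-coding promoters in that table and CACCC by 62.9%. The letters of the GATA sites AGATAA and TGATAA were in neither window, and 7.57% and 5.43% of all promoters held them. The HindIII site AAGCTT, where the chromatin was cut, was also in neither window (5.19% of all promoters). Each window lies inside a single cut fragment, so this absence was fixed in advance. The GC content was 71% for MYB and 64.7% for HBS1L, against a median of 62.7%.

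The MYB promoter fragment had 14 interactions in ponatinib and 21 in DMSO. In ponatinib 85.2% of the 13721 protein-coding genes with a listed bait fragment had fewer interactions than MYB, and in DMSO 94.5% did, while the median gene had 4 in each list. Shares of entries below count each list's entries, so that a pair in both lists is counted once in each. Of the MYB entries 40% were in the ponatinib list (23.9 to 57.9%), an interval that holds the 52.1% of the entries of the whole lists. As 8 pairs entered once in each list and some partners adjoin each other, the entries are not independent. The interval is therefore a description and not a test against the whole lists. The log2 ratio of ponatinib over DMSO, with 1 added to each number, was -0.55. A gene was called different at a ratio of at least 2-fold with at least 5 interactions over both lists. By that call 9.92% of 9787 genes had more in ponatinib and 6.26% had fewer, and MYB was in neither group. Of the same genes 37.6% had fewer interactions in ponatinib by any amount, and 14.7% had a log2 ratio at or below that of MYB.

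Most partners of MYB lay downstream, inside AHI1. AHI1 held 10 of 14 partner fragments in ponatinib (71.4%, 41.9 to 91.6%) and 13 of 21 in DMSO (61.9%, 38.4 to 81.9%), and 6 of these were the same fragment in both lists. They started 106 kb downstream of the MYB start in ponatinib and 123 kb in DMSO, and they ended at 264 kb in ponatinib and 251 kb in DMSO. Over both lists MYB was paired with 17 of the 49 fragments of AHI1 that either list names. On the whole chromosome 11 partners in ponatinib and 14 in DMSO lay downstream of MYB, against 3 and 6 upstream. Partners in AHI1 were not particular to the MYB promoter. The bait fragment inside MYB at 135192433 to 135199395 had 28 of 40 there in ponatinib and 36 of 51 in DMSO. The bait fragment inside AHI1 at 135301461 to 135307633 had 3 of 14 and 7 of 24, and the HBS1L promoter fragment 0 of 2 and 1 of 4.

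**Figure D1:**
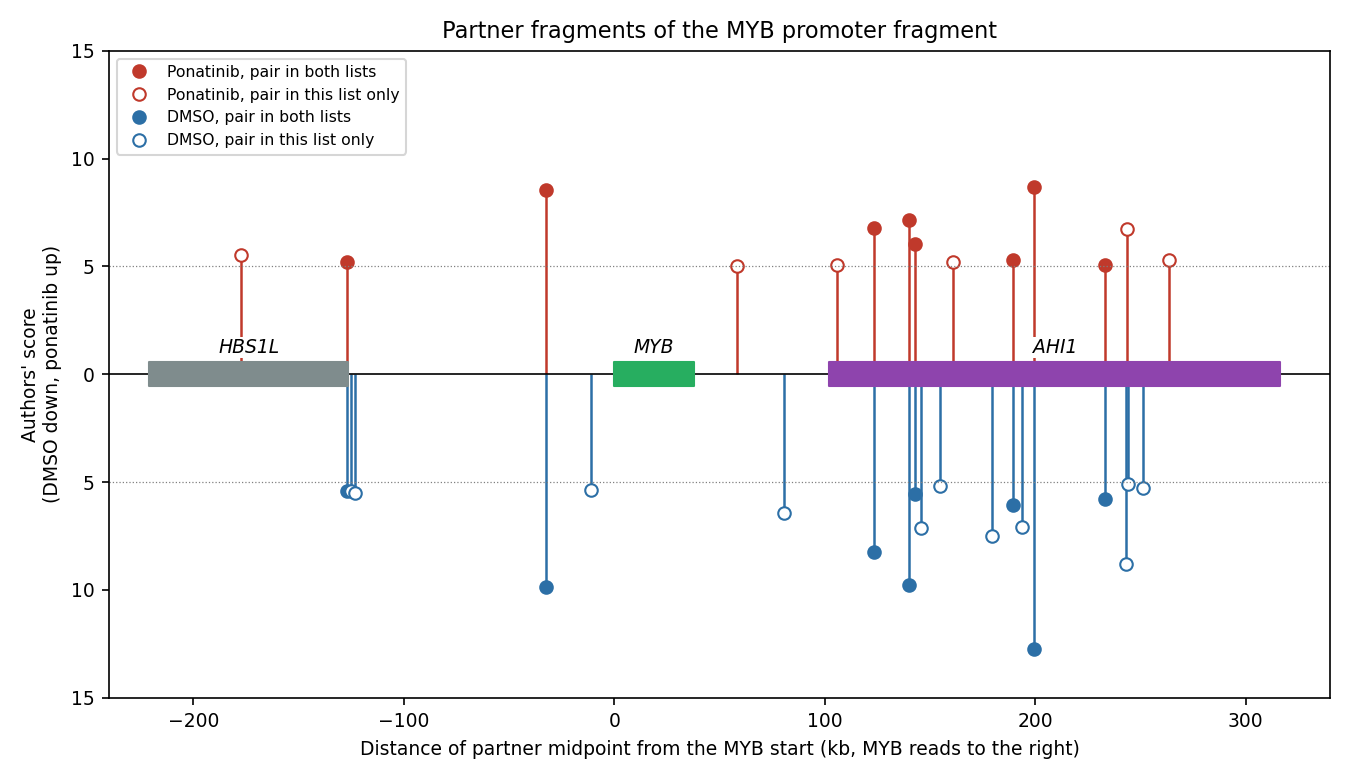
Partner fragments of the MYB promoter fragment by distance from the MYB start in kb, from 240 kb upstream to 340 kb downstream, with the authors' score upwards for ponatinib and downwards for DMSO. Filled points are pairs in both lists, open points pairs in 1 list, dotted lines the lowest listed score of 5, and blocks the genes. The highest point in each list, 8.7 in ponatinib and 12.75 in DMSO, is the same fragment in AHI1. The DMSO partners 986 kb upstream and on chromosome 7 lie outside the plot.

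The highest scoring partner of MYB in both lists was a fragment of AHI1 at 135380103 to 135381223, 199 kb downstream, which scored 8.7 in ponatinib and 12.75 in DMSO. Among all pairs 100 to 200 kb apart in the same list, 76.3% scored lower in ponatinib and 92.9% in DMSO. The AHI1 fragment at 135320843 to 135322155, 140 kb downstream, scored 7.14 in ponatinib and 9.77 in DMSO. Its neighbour at 135322156 to 135325919 scored 6.03 in ponatinib and 5.56 in DMSO and holds one end of the lncRNA LOC124901407. It was the only partner of MYB in both lists with the higher score in ponatinib. The next fragment, 135325920 to 135327872, lies within the same lncRNA and was listed in DMSO only, at 7.11. A bait fragment inside AHI1, at 135301461 to 135307633, scored 6.76 in ponatinib and 8.23 in DMSO. The last partners in both lists were 135370386 to 135371421, with 5.29 in ponatinib and 6.08 in DMSO, and 135410659 to 135418460, with 5.06 and 5.8. Thus the shared AHI1 partners stretched from 123 to 233 kb downstream of the MYB start.

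Beyond 135445409 no fragment of AHI1 was paired with the MYB promoter in either list. The stretch up to the AHI1 start is 52.3 kb long, and 7 of its fragments are named in the lists with other partners. The fragment with the AHI1 start, 135497029 to 135503557, also holds an end of the lncRNA AHI1-DT and was listed only as a partner of other bait fragments. It was paired with the MTFR2 promoter fragment, 751 kb away, at 7.61 in ponatinib and 7.42 in DMSO. In DMSO it was also paired with the fragment at the ends of BCLAF1 and LOC124901408, 789 kb away, at 8.86.

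Between HBS1L and MYB 1 partner was listed in ponatinib and 4 in DMSO, with 1 shared, and at scores of at least 7 there was 1 in each list. The shared one, 135145323 to 135152721, lies 32.3 kb upstream of the MYB start, holds no end and no body of a RefSeq gene, and was the second highest score of MYB in both lists. It scored 8.54 in ponatinib and 9.84 in DMSO, above 80.7% and 88.8% of pairs 20 to 50 kb apart. The others were listed in DMSO only and had low scores. One, 11.1 kb upstream at 135167693 to 135172777, scored 5.37. A pair of fragments next to the HBS1L promoter was listed, at 135056018 to 135056717 with 5.39 and at 135057530 to 135058454 with 5.49. Both lie in LOC124901405, and the second also holds one end of the lncRNA LOC124901406. From about 36 to 123 kb upstream of MYB, a stretch of 86.9 kb, no fragment was paired with the MYB promoter in either list. Of that stretch 3 fragments, 10.4 kb in sum, are named in the lists with other partners, and 1 of them is a bait.

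**Figure D2:**
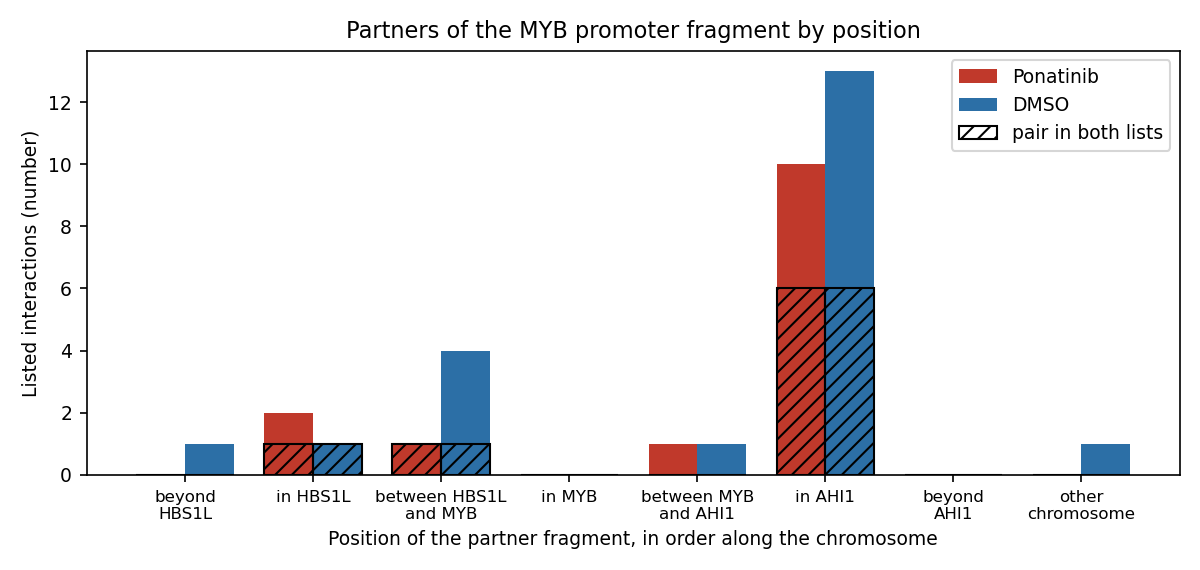
Number of listed interactions of the MYB promoter fragment (vertical axis) by the position of the partner's midpoint along the chromosome, with ponatinib in red left of DMSO in blue and pairs found in both lists hatched. AHI1 holds 10 partners in ponatinib and 13 in DMSO, and the interval between HBS1L and MYB holds 1 and 4.

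The HBS1L promoter fragment had 2 interactions in ponatinib and 4 in DMSO, of which 2 were shared. In ponatinib 19.5% of genes had fewer, and in DMSO 44.3% did. Of its entries, shared pairs counted in each list, 33.3% were in ponatinib (4.33 to 77.7%). Both shared partners lie in MYB. The pair of the HBS1L and MYB promoter fragments, 128 kb apart, scored 5.19 in ponatinib and 5.41 in DMSO, near the lowest listed score. The HBS1L pair with the bait fragment inside MYB, 135192433 to 135199395, scored 12.34 in ponatinib and 5.79 in DMSO. In ponatinib 91.1% of pairs 100 to 200 kb apart scored lower than this pair, against 31.7% in DMSO. The 2 remaining partners were listed in DMSO only. One, at 135266748 to 135270199 between MYB and AHI1, scored 5.15, and the other, at 135381224 to 135389920 in AHI1, scored 5.09.

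The remaining partners of MYB were scattered. A fragment inside HBS1L, 177 kb upstream at 135003501 to 135004458, was listed in ponatinib only at 5.51. Between MYB and AHI1 the bait fragment that holds the microRNA gene MIR548A2, 58.5 kb downstream, was listed in ponatinib only at 5.02, and a bait fragment 80.6 kb downstream was listed in DMSO only at 6.41. In DMSO MYB was also paired at 5.53 with a fragment inside SGK1, a serum-regulated kinase gene 986 kb upstream, and at 6.42 with a fragment inside DPP6 on chromosome 7. Over both lists 4 of the 27 partners of MYB were bait fragments.

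In all 8 MYB interactions were the identical pair in both lists. They made up 57.1% of those in ponatinib (28.9 to 82.3%), where 40.7% of the whole list was shared, and 38.1% of those in DMSO (18.1 to 61.6%), where 44.3% was. When both ends only had to lie within 5 kb, 10 of 14 in ponatinib and 15 of 21 in DMSO had a counterpart, 71.4% in each, against 66.6% and 67.5% of the whole lists. Neighbouring fragments around 243 kb downstream show the difference between these counts. There ponatinib listed 135424783 to 135425080 at 6.72, while DMSO listed the adjoining 135424009 to 135424782 at 8.81 and 135425081 to 135425665 at 5.07.

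Interactions of MYB found in 1 list only had low scores in ponatinib and a wider range in DMSO. The 6 in ponatinib only scored 5.02 to 6.72 with a median of 5.27. The 13 in DMSO only scored 5.07 to 8.81 with a median of 5.53, and 4 of them scored at least 7. The share of all pairs in 1 list only that scored at least 7 is not given here. These counts therefore describe MYB alone and do not set it apart from other genes. Those 4 lie in AHI1, and next to the fragments at 7.11 and 8.81 already given they were 135360061 to 135361816 at 7.52 and 135371422 to 135378829 at 7.06. The fragments at 7.11, 8.81 and 7.06 each adjoin a fragment that was paired with MYB in ponatinib, and the fragment at 7.52 does not. The rest of AHI1 in ponatinib only were 135286767 to 135287728 at 5.09, 135338694 to 135346053 at 5.22 and 135444436 to 135445409 at 5.32. In DMSO only they were 135333976 to 135338693 at 5.2 and 135430338 to 135434605 at 5.25.

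Of the 8 shared interactions of MYB 1 had the higher score in ponatinib and 7 the lower. Over all shared pairs on 1 chromosome 53.9% had the higher score in ponatinib. The median score of the 8 was 6.40 in ponatinib and 7.16 in DMSO. Their log2 score ratios ran from -0.55 to 0.12 with a median of -0.20, and the median over all shared pairs on 1 chromosome was 0.04, with 90% of them between -0.72 and 0.86. The 8 partners share the MYB fragment and some adjoin each other, so they are not independent. Among pairs of like distance in the same list the MYB scores were mostly in the lower part. The median percentile was 18.0 in ponatinib, with 5 of 14 above 50, and 37.1 in DMSO, with 8 of 20 above 50.

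**Figure D3:**
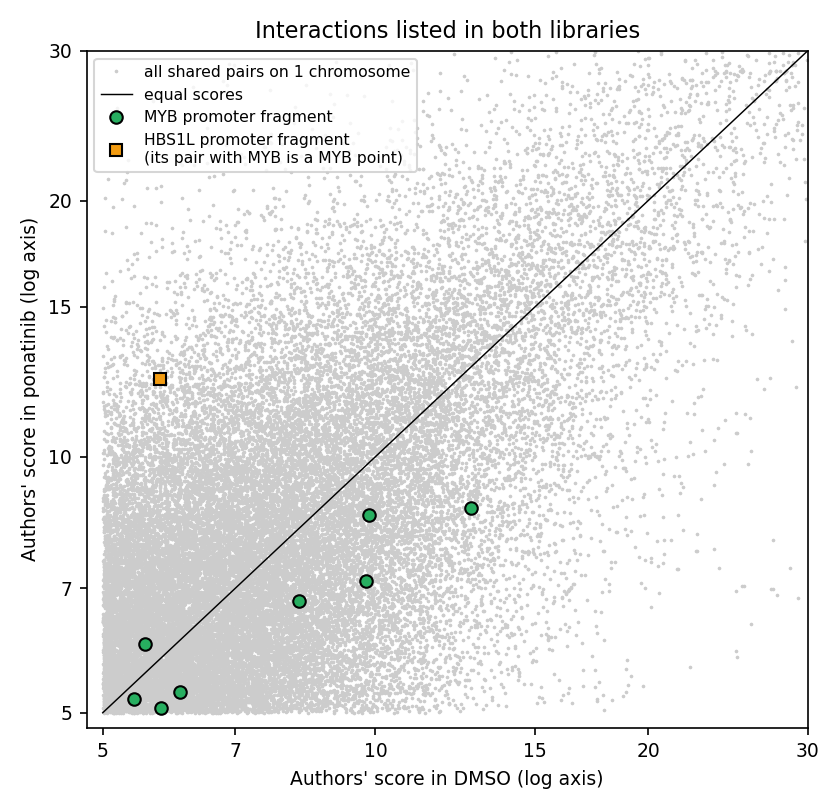
Authors' score in DMSO (horizontal, log axis) and in ponatinib (vertical, log axis) for pairs in both lists, with all pairs on 1 chromosome in grey, MYB in green and the remaining HBS1L pair in orange. The axes end at a score of 30, and the line marks equal scores. Of the 8 MYB points 7 lie below the line, and the orange point lies above it at 12.34 in ponatinib and 5.79 in DMSO.

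The partners of MYB were set beside those of the other bait fragments in the locus. From HBS1L to the AHI1 start 7 bait fragments were listed, 5 of which hold no end of MYB, HBS1L or AHI1. The fragment inside MYB at 135192433 to 135199395 holds one end of the lncRNA LOC105378011 and had 40 interactions in ponatinib and 51 in DMSO, with 34 shared. Of its 57 partners 21 were also partners of the MYB promoter fragment, and AHI1 held 28 in ponatinib and 36 in DMSO. By the Jaccard index of partner fragments over both libraries LOC105378011 was the gene most like MYB (0.33), followed by MIR548A2 (0.21). This ranking covers genes only, so the LOC105378011 fragment need not be the bait most like MYB. It leaves out local baits that hold no gene end. Of these, the bait at 135258840 to 135264896 shared 17 of its 43 partners with MYB. The bait inside AHI1 at 135301461 to 135307633 shared 9 of its 27, and the bait at 135101415 to 135103226 shared 1 of 2. Only 4 genes shared any partner with MYB. TBPL1 and LOC128092253 had the same numbers, 1 shared of 11 partners each, and need not be separate fragments. HBS1L shared none.

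A pair of fragments was listed with most of the baits in the locus, and both belong to the partners of MYB. The fragment 32.3 kb upstream of MYB was paired with the same 5 bait fragments in both lists. The AHI1 fragment 199 kb downstream was paired with 6 in ponatinib and 5 in DMSO. Another AHI1 fragment, 135410659 to 135418460, was paired with 4 in each list. Of all non-bait fragments in the whole lists, 1.87% in ponatinib and 1.58% in DMSO were paired with at least 5 baits. That share takes no account of the number of baits nearby, which was 7 from HBS1L to the AHI1 start. The number 5 was chosen after these values were seen, and the share is a description of the lists.

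**Figure D4:**
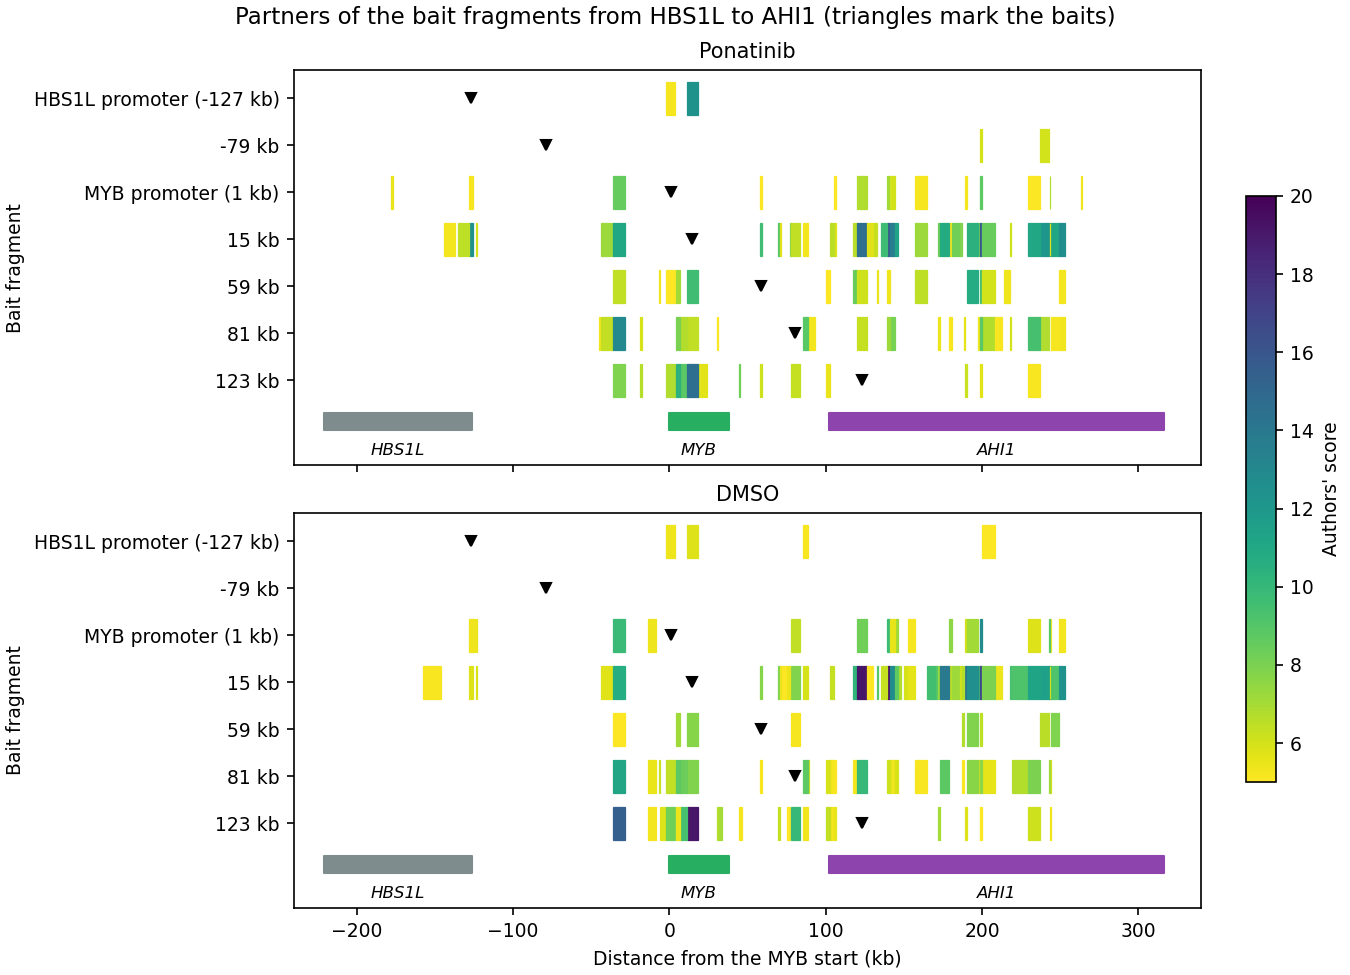
Partners of each listed bait fragment from HBS1L to AHI1, 1 line per bait and 1 panel per library, at their distance from the MYB start in kb and shaded by the authors' score. Triangles mark the baits and blocks the genes. The column 32.3 kb upstream of MYB is filled on 5 lines in ponatinib and 5 in DMSO, and no partner on the lines shown lies between 264 kb downstream and the right edge of the plot.

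The wider setting was taken from 3 lists of related genes, which were chosen with earlier results of these data known. Erythroid regulators and MYB cofactors had 12 of 16 members with a listed bait fragment, with 79 interactions in ponatinib and 65 in DMSO. Of the 12, 5 had more in ponatinib and 5 fewer, and the median log2 ratio was 0, as it was over all genes, of which 48.0% had more and 37.3% fewer. BCL11A, a repressor of fetal globin, had 7 in ponatinib and 2 in DMSO, and GATA1, the erythroid GATA factor, had 5 and 1, with 0 shared for each. These 2 of the 10 members with at least 5 interactions passed the 2-fold call with more in ponatinib and 0 with fewer, against 9.92% and 6.26% of the 9787 genes with as many. LDB1, which joins enhancers to promoters in erythroid cells, had 10 and 5, with one fragment shared with PPRC1. TAL1 had 11 and 7, and LMO2 had 8 and 4 on a fragment shared with LOC105376621, the same difference as GATA1. KLF1 had 2 in each list on a fragment shared with GCDH and RPS6P25. CREBBP, an acetyltransferase that binds MYB, had 4 and 6, with a fragment shared with TRAP1, and MYBL2, a MYB paralogue with a role in the cell cycle, had 8 and 10. TAF12, a TFIID subunit, had 7 and 9 on a fragment shared with RNU11 and TAF12-DT, the same difference as the last 2 genes.

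Genes of ribosome rescue and RNA decay, partners of HBS1L in function, had 9 of 13 members with a listed bait and 32 interactions in ponatinib against 39 in DMSO. Of the 9, 3 had more in ponatinib and 6 fewer, and the median log2 ratio was -0.36. Of the 5 with enough interactions 0 passed the 2-fold call in either direction. Over all genes 48.0% had more and 37.3% fewer, and of the 9787 with enough interactions 9.92% passed with more and 6.26% with fewer. ABCE1, the ribosome recycling factor, had 5 in ponatinib and 9 in DMSO on a fragment shared with ANAPC10. SKIC3, a subunit of the SKI complex, had 3 and 6 on a fragment shared with ARSK. XRN1, the cytoplasmic exonuclease, had 3 in ponatinib and was listed at 0 in DMSO on a fragment shared with ATR. DIS3, the exosome nuclease, had 3 and 1 on a fragment shared with PIBF1.

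Genes of the ciliary transition zone and of Joubert syndrome, related to AHI1, had 14 of 18 members with a listed bait and 62 interactions in ponatinib against 72 in DMSO. Of the 14, 4 had more in ponatinib and 8 fewer, with a median log2 ratio of -0.33, against 48.0% with more, 37.3% with fewer and a median of 0 over all genes. Of 11 with enough interactions 2 passed the 2-fold call with more, TCTN1 with 6 in ponatinib and 2 in DMSO and B9D1, on a fragment shared with MAPK7 and MFAP4, with 5 and 1. One passed with fewer, RPGRIP1L, which was listed at 0 in ponatinib and had 5 in DMSO on a fragment shared with FTO. Of the 9787 genes with enough interactions 9.92% passed with more and 6.26% with fewer. B9D2 had 5 and 9 over a pair of fragments, and ends of TGFB1 and TMEM91 lie on them.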

How the data were processed

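K562 cells given ponatinib or DMSO were profiled by promoter-capture Hi-C, 1 library each. Per the labels' protocols, chromatin was cut with HindIII and ligated, and promoter fragments were captured with RNA probes. Each library has 1 list of fragment pairs, deposited by the authors with a score for each pair. Coordinates are hg38 according to the submitters' processing notes. How reads were aligned, how interactions were called and scored and which threshold was set is not given in the sources used here. Depth is unknown and scores were not normalised between libraries.

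A pair was taken without order, and 1 ponatinib pair listed in both orientations was counted once. Genes came from the RefSeq table of GRCh38.p14 and were assigned to listed bait fragments holding either end. Partners were placed by their midpoint. Pairs were shared when both fragments were identical. Distance classes had edges at 20, 50, 100, 200, 500 and 1000 kb. Neighbouring genes were named where a bait or partner fragment holds them, list members by the 2 largest gains and losses in number with ties added, and likeness to MYB by the Jaccard index. GATA1, TAL1, LMO2, KLF1 and the count of baits per fragment were chosen after the values were seen. The members and the 3 lists were chosen with earlier results of these data known. Alternatives were scores of at least 7 or 10, lists of equal length, other gene and end tolerances, a pseudocount of 0.5, a minimum of 10 interactions, and numbers scaled by list length. Counting was tested on simulated lists. Python 3.11.15, pandas 2.3.3 and scipy 1.17.1 were used.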

Additional observations from a re-analysis of the deposited data

How the results depend on the processing

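With 1 library per treatment no replicate could be left out. No paired analysis was possible because each treatment has 1 library and no test was made. Shares in ponatinib count a pair that is in both lists once in each. The fewer MYB interactions in ponatinib kept their direction in every alternative run for that number. At scores of at least 7 MYB had 3 in ponatinib and 8 in DMSO, and at 10 it had 0 and 1 (0% in ponatinib). For HBS1L the order turned at scores of at least 7 and of at least 10, with 1 interaction in ponatinib and 0 in DMSO (100% in ponatinib each time). Of the entries of MYB with partners in AHI1 22.2% were in ponatinib at scores of at least 7 and 0% at 10, with 2 against 7 and 0 against 1 interactions. Between HBS1L and MYB 50% were in ponatinib at scores of at least 7, with 1 against 1, and 20% at all scores. No interaction was left there at 10. Of the MYB interactions in ponatinib 100% were shared at scores of at least 7 (3 of 3), and of those in DMSO 37.5% were (3 of 8). The shares of the whole lists at that score are not given here. At all scores 71.4% of the MYB interactions in DMSO were shared with ends matched within 5 kb and 81.0% within 10 kb. In the whole DMSO list 67.5% and 72.3% were. Genes called with at least 2-fold more in ponatinib numbered 467 with a minimum of 10 interactions and 520 at scores of at least 7, against 971 as reported, and those with fewer 243 and 257, against 613. Higher minimum scores and numbers leave fewer pairs and genes by construction, and wider tolerances match more. For the order at HBS1L, which rests on 1 interaction, the cause was not tested. The low numbers per gene and the unknown depth limit each comparison.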

Other observations

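The other bait fragments between HBS1L and the AHI1 start did not all have fewer interactions in ponatinib. The fragment that holds MIR548A2, 58.5 kb downstream of the MYB start, had 17 in ponatinib and 9 in DMSO, with 5 shared. Of its entries, shared pairs counted in each list, 65.4% were in ponatinib (44.3 to 82.8%). A fragment between MYB and AHI1, at 135258840 to 135264896, had 25 and 30, with 12 shared. The fragment inside AHI1 at 135301461 to 135307633 had 14 and 24, with 11 shared, and 36.8% of its entries counted in the same way were in ponatinib (21.8 to 54.0%). Its highest score in both lists was its pair with the fragment inside MYB, at 14.63 in ponatinib and 19.15 in DMSO.

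A bait fragment at 135101415 to 135103226, between HBS1L and MYB and 79.0 kb upstream of the MYB start, holds no end of a RefSeq gene. It was listed with 2 interactions in ponatinib and was listed at 0 in DMSO. Both of its partners lie in AHI1, at 135380103 to 135381223 with a score of 5.98 and at 135418461 to 135424008 with 6.01. The first of them is also the highest scoring partner of the MYB promoter fragment.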
